A study of Mus musculus with 2 samples.

Results

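The genes described here are 45 genes of mitosis and cytokinesis, among the 20660 genes that could be named on the arrays. They were chosen by name, for what their products do when a cell divides, by a rule that uses no measured value, although earlier results of these data were known when the list was made. Every member had a probe, and 42 of the 45 were well above background on both arrays. RNA of primary chondrocytes, the matrix-producing cells of cartilage, was measured in cultures from 6-day-old C57BL/6J mice on 2 one-colour arrays. The cells were seeded in fibronectin-coated silicon chambers and kept for 48 h. In most experiments of the study, primary chondrocytes spent 24 h without serum before a stimulus. Whether the cells on these arrays did is not stated. On the first array is RNA of cells that had not been loaded. On the second is RNA of cells stretched for 30 min (cyclic strain, 0.5 Hz, 10% elongation) and collected 24 h later. The labels name no genetic change in these mice, and the cultures share strain, age, coating and seeding, so that loading and time set the groups apart. There was 1 array per time point, so no test was run, no p-value is given and the differences have no replicate check. Because the unloaded cells were collected 24 h earlier than the loaded ones, loading and the additional day in culture cannot be told apart. In cultures measured as a whole, fewer dividing cells and less RNA per dividing cell cannot be told apart either.

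When a cell enters mitosis, cyclins A2, B1 and B2 activate the kinase Cdk1, chromosomes are compacted by condensin, and a kinetochore forms on each centromere to hold spindle microtubules. The spindle checkpoint delays separation until every kinetochore is attached. Cdc20 then activates the anaphase-promoting complex (APC/C), a ubiquitin ligase that marks securin and B cyclins for destruction, which frees separase to cut cohesin, and the cytoplasm is divided at the midzone and the contractile ring. The mRNAs of most of these proteins are made late in the cell cycle, in G2 phase and mitosis, from promoters that often carry a cell cycle genes homology region (CHR) close to the start of transcription and CCAAT boxes upstream of it. The CHR is bound by the MuvB core complex, with B-Myb and FoxM1 when the genes are active and with p130 or p107 and E2F4 in the DREAM complex when they are silent. CCAAT boxes are bound by NF-Y. Chondrocytes divide in the growth plate and in young cultures, whereas those of adult articular cartilage rarely do.

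The promoters of the 3 members with the lowest ratio of 24 h over before and of the 2 with the highest, among detected members with a single promoter entry, are shown here, since these genes mark both ends of the range described further on. The sequences come from RefSeq (GRCm38.p6) and run from 150 bases before the transcription start to base 30 after it, in the direction of the gene. Cenpa lies at chr5:30666736-30666915 on the plus strand, Cdca3 at chr6:124830026-124830205 on the plus strand and Ccnb2 at chr9:70421525-70421704 on the minus strand. Pttg1 lies at chr11:43425952-43426131 on the minus strand and Cks1b at chr3:89418262-89418441 on the minus strand. Capitals mark the hexamers TTTGAA and TTTAAA, 2 forms of the CHR, and the CCAAT box, on either strand (so that TTCAAA and ATTGG are the same motifs read from the other strand).
Cenpa: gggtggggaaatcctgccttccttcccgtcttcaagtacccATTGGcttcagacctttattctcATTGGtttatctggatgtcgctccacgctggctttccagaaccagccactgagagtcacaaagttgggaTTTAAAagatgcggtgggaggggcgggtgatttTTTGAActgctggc
Cdca3: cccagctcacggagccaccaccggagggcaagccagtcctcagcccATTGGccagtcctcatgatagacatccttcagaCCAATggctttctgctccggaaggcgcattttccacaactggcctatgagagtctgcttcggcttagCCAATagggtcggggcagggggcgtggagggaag
Ccnb2: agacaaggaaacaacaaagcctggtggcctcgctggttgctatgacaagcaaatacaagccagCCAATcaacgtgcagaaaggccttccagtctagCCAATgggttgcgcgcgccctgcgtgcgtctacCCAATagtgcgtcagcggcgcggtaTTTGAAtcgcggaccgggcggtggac
Pttg1: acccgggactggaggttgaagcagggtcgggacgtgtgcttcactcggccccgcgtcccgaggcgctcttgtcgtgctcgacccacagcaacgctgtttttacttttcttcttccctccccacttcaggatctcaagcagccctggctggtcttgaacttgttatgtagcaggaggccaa
Cks1b: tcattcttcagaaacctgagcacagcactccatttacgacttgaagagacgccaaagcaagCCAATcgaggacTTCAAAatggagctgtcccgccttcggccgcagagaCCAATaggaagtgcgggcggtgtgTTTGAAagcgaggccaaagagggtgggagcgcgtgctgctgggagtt
Positions count from the start, with base 1 the first transcribed base and negative values before it, and give the motif's first base as printed. Ccnb2 held CCAAT boxes at -87, -54 and -21, 33 bases apart each time, and TTTGAA at position 5. Cdca3 held CCAAT boxes at -104, -71 and -4, which are 33 and 67 bases apart, and its TTTGAA began at position 31, just past the stretch printed. Cenpa held CCAAT boxes at -109 and -86, TTTAAA at -17 and TTTGAA at position 17. The Cks1b stretch carried TTTGAA copies at -77 and -17 and CCAAT boxes at -89 and -41, although the mRNA was at nearly the same level on both arrays. None of these motifs lay in the 300-base window of Pttg1, the member that was higher at 24 h. The windows of Nusap1, Nuf2, Ncaph and Mad2l1 held none of them either. These genes were lower past 2-fold, with log2 ratios of -2.13, -1.38, -1.15 and -1.03.

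An entry in the promoter table, with 250 bases before and 50 bases after the start, matched 36 of the 45 members. Within these windows, TTTGAA on either strand occurred in 25 of 36 members (69.4%), against 20.2% of the 27025 genes in the table and 14.6% of the 11320 table genes detected on both arrays. TTTAAA, which reads the same on both strands, occurred in 8 members (22.2%, against 14.9% of all genes). Of the 27 member windows that held TTTGAA, 25 had the copy nearest the start within 60 bases of it. Ect2 and Prc1 count with separate windows here. The windows end 50 bases after the start, and the same share over all genes was not counted. A CCAAT box occurred in 28 of 36 members (77.8%, against 41.1% of all genes), and 20 members had at least 2 of them. Both TTTGAA and a CCAAT box were present in 23 members (63.9%, against 8.97% of all genes). The E2F octamers TTTCCCGC, TTTGGCGC, TTCCCGCC and TTGGCGCC, which can overlap each other, were searched together. They occurred in 4 members (11.1%), against 4.34% of all genes and 7.49% of the table genes detected on both arrays. The 24 S phase genes with an entry held TTTGAA and the E2F octamers in the opposite proportion. An E2F octamer occurred in 14 of them (58.3%) and TTTGAA in 4 (16.7%), whereas a CCAAT box occurred in 15 (62.5%). Among detected members, the 22 with TTTGAA had a median log2 ratio of -1.83 and the 11 without it one of -1.71, and both ranges were wide (-2.74 to -0.13 and -2.28 to 0.42). A match to these letters is a description of the window and does not show that a factor binds there.

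**Figure D1:**
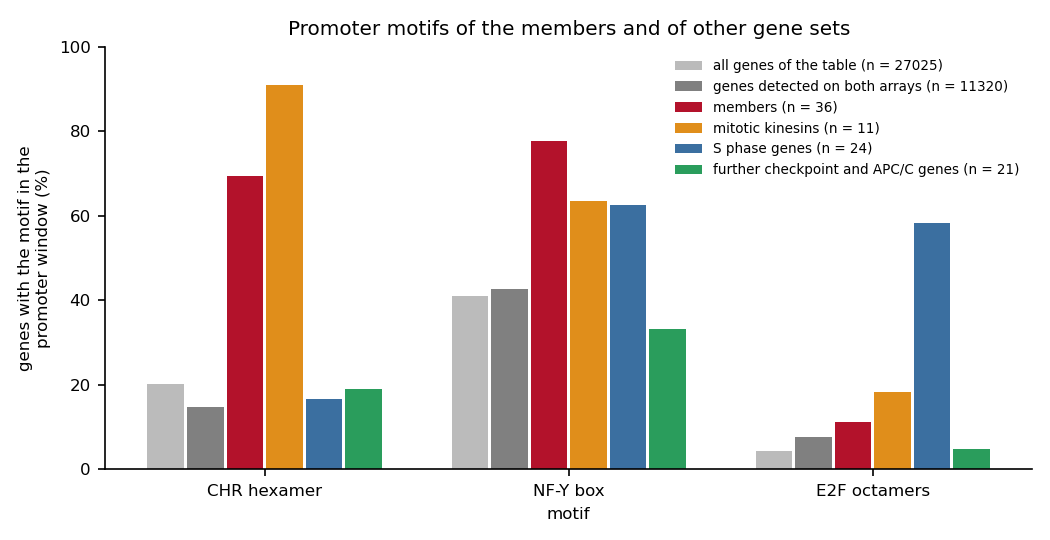
Share of genes (%, y axis) whose promoter window holds the CHR hexamer (the first of the forms searched), the CCAAT box bound by NF-Y (NF-Y box) or any E2F octamer (x axis), for members and 5 other gene sets. The members (red) stand at 69.4% for the CHR hexamer and 11.1% for E2F octamers, and the S phase genes (blue) at 16.7% and 58.3%.

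Most of the mitotic genes were measured at a lower level 24 h after loading. Of the 42 detected members, 37 were lower past 2-fold (88.1%), none was higher past 2-fold and 5 were within 2-fold, and 17 of the 37 were lower past 4-fold. Over all 14231 genes detected on both arrays, 1.83% were lower past 2-fold and 0.668% were higher. The median log2 ratio, 24 h after minus before loading, was -1.81 for the members and -0.01 for all detected genes. The members made up 14.2% of the 260 genes lower past 2-fold and 39.5% of the 43 genes lower past 4-fold. Of the detected members, 32 were abundant, meaning a mean intensity above the 75th percentile of the arrays. Among the 50 abundant genes with the lowest ratios, 24 were members. Intensities are the scanner software's processed signals, in arbitrary units, and the arrays' 75th percentiles, on which ratios were scaled, were 466 on both. The error given with a log2 ratio combines the software's error of both spots. It covers error within the arrays only, and had a median of 0.20 over the members. For most bright members the software's error was 10% of the intensity on each array. The value of 0.20 is therefore not a spread measured between spots.

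**Figure D2:**
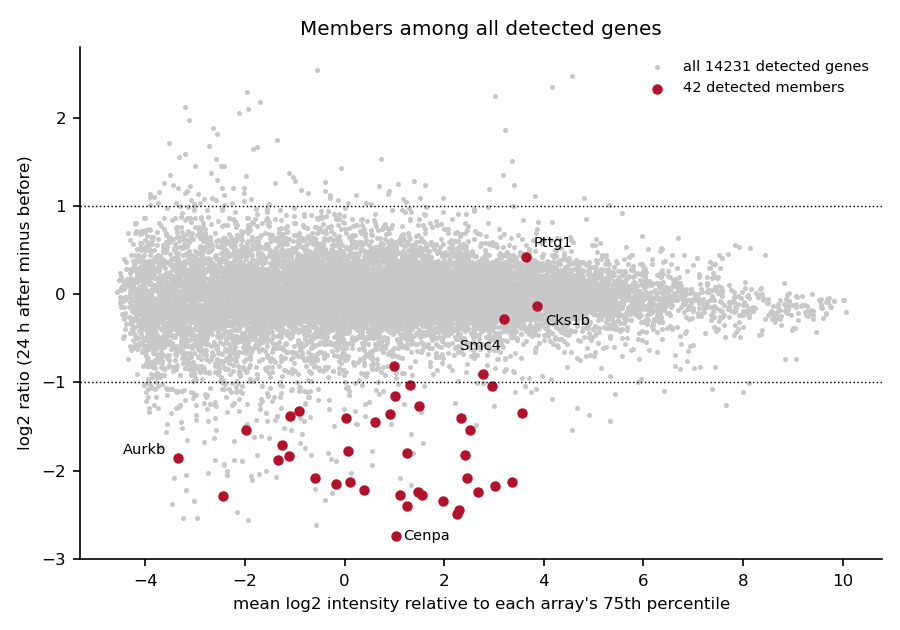
Log2 ratio of 24 h after over before loading (y axis) against mean log2 intensity relative to each array's 75th percentile (x axis) for the 14231 detected genes (grey) and the 42 detected members (red), with dotted lines at 2-fold. Of the members, 37 lie below the lower line, dim and bright ones among them, and Pttg1 lies above 0.

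The arrays held cells with the transcripts of chondrocytes at both times. Col2a1, which encodes the main cartilage collagen, stood at 499543 before and 474876 after loading, Acan, which encodes aggrecan, 71349 and 89998, and Sox9, the transcription factor of the lineage, 9965 and 11610. All 14 chondrocyte markers were detected and none passed 2-fold (median log2 ratio 0.10, summed intensity 1507216 and 1522981). The 8 fibroblast and dedifferentiation markers had a median of 0.07 with none past 2-fold. Of the macrophage markers, 7 of 8 had a probe and all 7 were detected, with a median log2 ratio of 0.21 and summed intensities of 29925 and 29049, most of which came from Itgam (25496 and 24759). Among these, Ptprc was higher past 2-fold, from 20.9 to 46.1. Endothelial Cdh5, Tie1, Emcn and Esam and erythroid Hbb-bt, Alas2 and Klf1 were not well above background. Summed over detected markers, intensities were 12884 and 12505 for the endothelial list (2 of 6 detected), 86.9 and 84.1 for the erythroid list (2 of 6) and 1841 and 1519 for the skeletal muscle list (4 of 6). No part of these lists in the members' change was tested.

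All 6 detected genes of the centromere and kinetochore were lower past 2-fold, with a median log2 ratio of -1.98. Cenpa encodes the histone H3 variant that marks the centromere, and its intensity was 2461 before loading and 368 at 24 h. That ratio, a log2 value of -2.74 (error 0.20) or 6.68-fold lower, was the lowest among all genes detected on both arrays. Cenpe encodes a kinesin that carries chromosomes to the spindle equator, and its intensity was 3026 before and 623 after, 4.85-fold lower. The Ndc80 complex, which binds the microtubule end-on, was lower in all 4 of its subunits. Spc24 went from 635 to 149 (4.25-fold lower) and Ndc80 from 355 to 96.6 (3.67-fold lower). Its other subunits stood less far apart between the arrays, with Nuf2 at 355 and 136 (2.60-fold lower) and Spc25 at 8833 and 3469 (2.54-fold lower). The log2 ratios of Spc24 and Spc25, -2.09 and -1.35, were farther apart than their within-array errors of 0.21 and 0.20, but with normexp background correction they were -1.61 and -1.27 and that of Ndc80 was -1.27. For Cenpf, which encodes a large outer kinetochore protein, neither array was well above background (13.3 and 5.29), so it has no ratio. A second probe of Nuf2 was also too dim to be called above background.

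In the spindle checkpoint and the activation of the APC/C, the 5 detected members were lower past 2-fold, with a median log2 ratio of -1.83. Cdc20, the activator that the checkpoint holds back, went from 8092 to 1781, 4.54-fold lower. Ube2c is the ubiquitin-conjugating enzyme that starts chains for the APC/C. One of its probes went from 2554 to 483 and another from 2517 to 484, so that separate probes gave log2 ratios of -2.40 and -2.38. Bub1b, which encodes the checkpoint inhibitor BubR1, went from 405 to 114 (3.55-fold lower). The kinase gene Bub1 was printed in 10 spots, of which 7 were free of outlier flags. The spots of Bub1 lay between 337 and 371 before loading and between 101 and 116 at 24 h, so that no spot of one array reached the range of the other. The log2 ratio of Bub1 was -1.71, with single spots from -1.85 to -1.60 and an SD of 0.09 between spots, which is spread within the arrays and not between cultures. Ttk encodes the kinase Mps1, which starts checkpoint signalling. Its signal was 49.8 before loading and not well above background at 24 h (16.8), at least 2.79-fold lower. Mad2l1, which encodes the inhibitor Mad2, was close to the 2-fold line. Its brightest probe went from 1653 to 809 (log2 ratio -1.03), and its other probes gave -1.14 and -0.85.

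The genes of cohesion protection and release differed most among themselves. Sgo1, which encodes the shugoshin that shields centromeric cohesin, went from 1333 to 286, 4.66-fold lower. Espl1 encodes separase, the protease that cuts cohesin at anaphase, and its intensity was 202 before loading and 69.3 at 24 h (2.92-fold lower). Pttg1, which encodes securin, the inhibitor of separase, went the other way, from 5019 to 6700, a log2 ratio of 0.42 (error 0.20) or 1.34-fold higher. It was the only one of the 42 detected members with a ratio above 0. A second Pttg1 probe was not well above background before loading (16.4) and was at 45.1 at 24 h, at least 2.61-fold higher. Both probes therefore had the higher intensity at 24 h, and under the scaling and background alternatives run for all members the brighter probe stayed between 0.42 and 0.54. Separase and its inhibitor thus stood on opposite sides of 0, at log2 ratios of -1.54 and 0.42. Probe sequences were not at hand, so binding of the Pttg1 or Cks1b probes to other, near-identical sequences could not be examined.

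**Figure D3:**
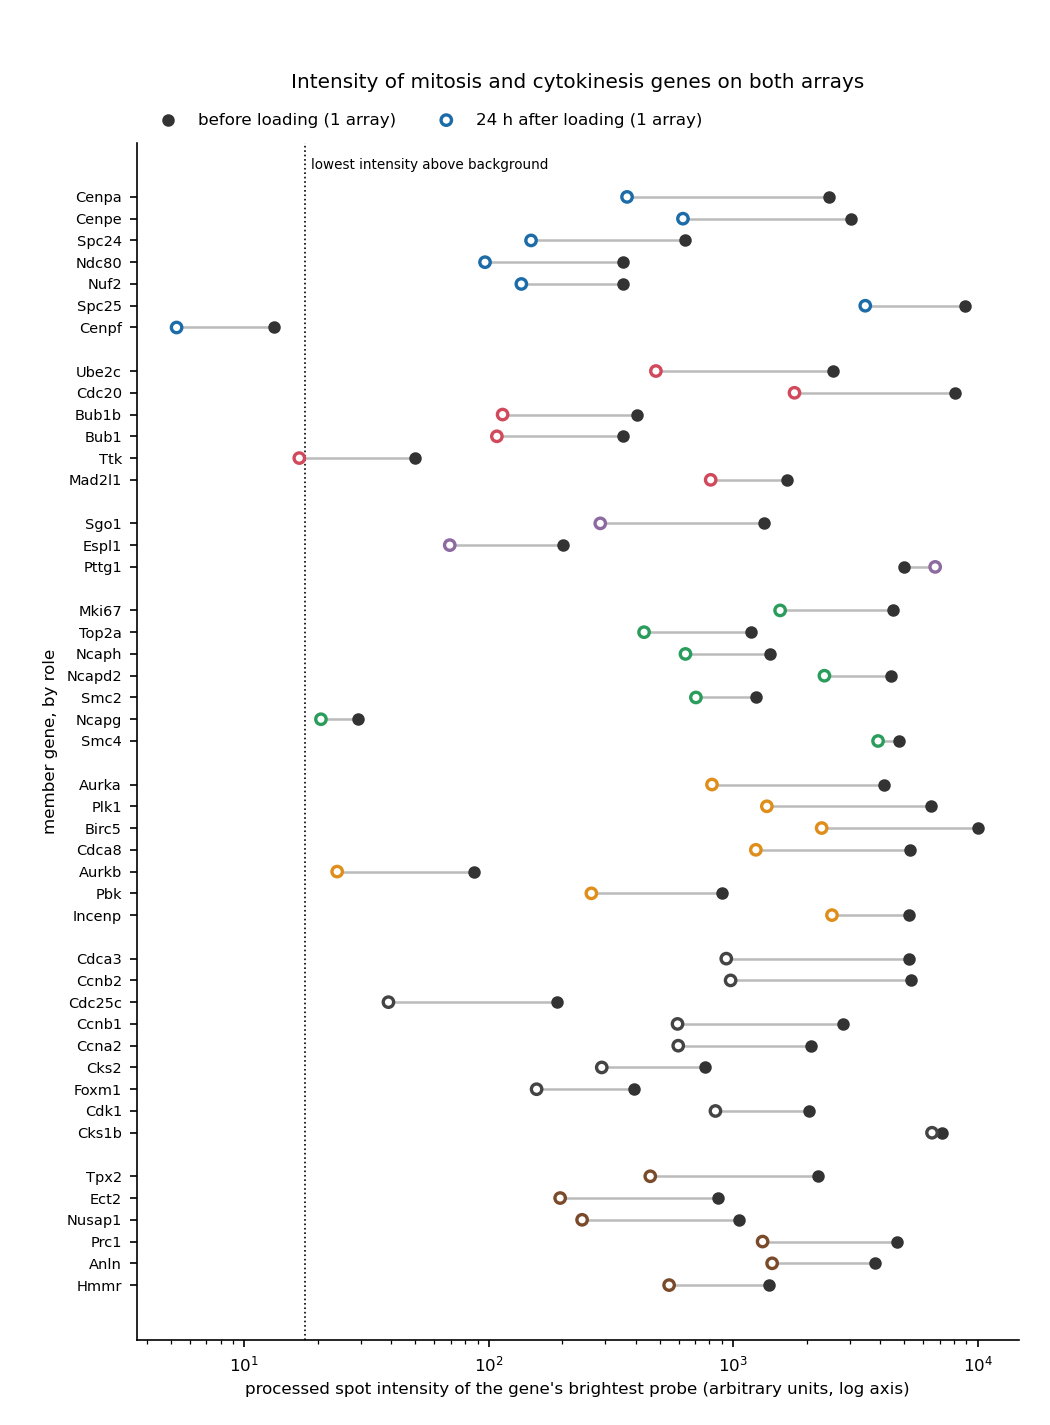
Processed intensity (arbitrary units, log x axis) of the brightest probe of each of the 45 members, grouped by role (y axis), on the array before loading (filled) and 24 h after loading (open). The dotted line marks the lowest intensity well above background at 24 h (17.8), and Pttg1 is the member whose open symbol lies to the right.

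Condensin genes were nearer to 0 than most other groups. Of the 6 detected genes of condensin and chromosome structure, 3 were lower past 2-fold, and the median log2 ratio was -1.02. The core ATPase subunit Smc4 had intensities of 4747 and 3913 (log2 ratio -0.28, error 0.20), and its partner Smc2 had 1236 and 704 (-0.81). The regulatory subunits of condensin I were Ncapd2, at 4419 and 2361 (-0.90), Ncaph, at 1412 and 638 (-1.15), and Ncapg, which was near background. Ncapg was at 29.2 before loading and not well above background at 24 h (20.6), at least 1.42-fold lower. Among the condensin subunits that are members, then, Ncaph alone passed 2-fold in the brightest-probe measure, and Smc4 had the ratio nearest to 0. Top2a encodes the topoisomerase that untangles sister chromatids, and its intensity was 1178 before and 432 after, 2.73-fold lower. Mki67, whose product Ki-67 coats mitotic chromosomes and serves as a marker of proliferation, went from 4521 to 1556 (2.90-fold lower), and its probes gave log2 ratios of -1.54 and -1.53.

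Mitotic kinases and the chromosomal passenger complex had the lowest median of the groups, -2.09, and all 7 genes were lower past 2-fold. Aurka encodes the Aurora kinase of spindle poles, and its intensity was 4145 before loading and 819 at 24 h, 5.06-fold lower. Plk1, which encodes the polo-like kinase of mitotic entry and exit, went from 6472 to 1373 (4.71-fold lower). Pbk, a kinase gene of dividing cells, went from 904 to 263 (3.44-fold lower). The passenger complex corrects wrong attachments at centromeres and then moves to the spindle midzone. Its member Birc5, which encodes survivin, went from 10069 to 2301 (4.37-fold lower), and 3 probes gave log2 ratios from -2.63 to -2.13. Cdca8, which encodes borealin, went from 5280 to 1238 (4.26-fold lower), and a second probe gave -2.20. The scaffold gene Incenp was less far from 0 than these, at 5229 and 2535, and its probes straddled the 2-fold line at -1.04 and -0.99. The kinase of the complex, Aurkb, was dim, at 87.0 before loading and 24.0 at 24 h, and its log2 ratio of -1.86 had the largest error among detected members, 0.35. Of its 29 neighbouring spots within 100 µm, 3 were also lower past 2-fold, and with normexp background correction its ratio was -0.66.

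Cyclins, Cdk1 and its regulators held some of the lowest ratios and the gene nearest to 0. Of 9 genes, 8 were lower past 2-fold, with a median of -1.80. Cdca3, whose product takes part in the destruction of the kinase Wee1 at mitotic entry, went from 5253 to 937, 5.60-fold lower. Ccnb2 (cyclin B2) went from 5316 to 976 (5.45-fold lower), and Ccnb1 (cyclin B1) from 2806 to 592 (4.73-fold lower), with log2 ratios of -2.37 and -2.61 from its other probes. The cyclin A2 gene Ccna2, active from S phase onwards, was at 2082 and 596 (3.49-fold lower). The phosphatase gene Cdc25c, whose product activates Cdk1, was at 190 and 38.9 (4.88-fold lower, a log2 ratio of -2.29, which was -1.25 with normexp background correction). Cdk1 itself was at 2047 and 846 (2.42-fold lower), a ratio nearer to 0 than those of the B cyclins, and a dimmer probe gave a log2 ratio of -1.64 against -1.27 for the brightest. A further, dim Cdk1 probe was well above background before loading only, at 26 and 20.2. The small Cdk-binding proteins parted: Cks2 was at 765 and 290 (log2 ratio -1.40), whereas Cks1b was at 7142 and 6504 (-0.13, within its error of 0.20), and a second Cks1b probe gave -0.17. Foxm1, which encodes a transcription factor of G2 and M genes, went from 392 to 157 (2.49-fold lower). A second Foxm1 probe near background went from 32.9 to 30.9 (-0.09, error 0.36), so the Foxm1 probes did not give the same result, and their mean was -0.70.

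Spindle and cytokinesis genes were lower past 2-fold in all 6 cases, with a median of -1.97. Tpx2, which encodes the protein that targets Aurora A to the spindle, went from 2227 to 458 (4.86-fold lower), and a dim probe of another transcript gave a log2 ratio of -1.44. Ect2 encodes the exchange factor that switches on RhoA at the cleavage furrow, and went from 868 to 196 (4.44-fold lower). Nusap1, which encodes a protein that bundles spindle microtubules, went from 1053 to 241 (4.37-fold lower). Prc1, which encodes the crosslinker of the spindle midzone, was at 4659 and 1319 (3.53-fold lower). The contractile ring scaffold gene Anln was at 3805 and 1443 (2.64-fold lower), and Hmmr, a spindle assembly gene whose product also binds hyaluronan, was at 1402 and 547 (2.56-fold lower).

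**Figure D4:**
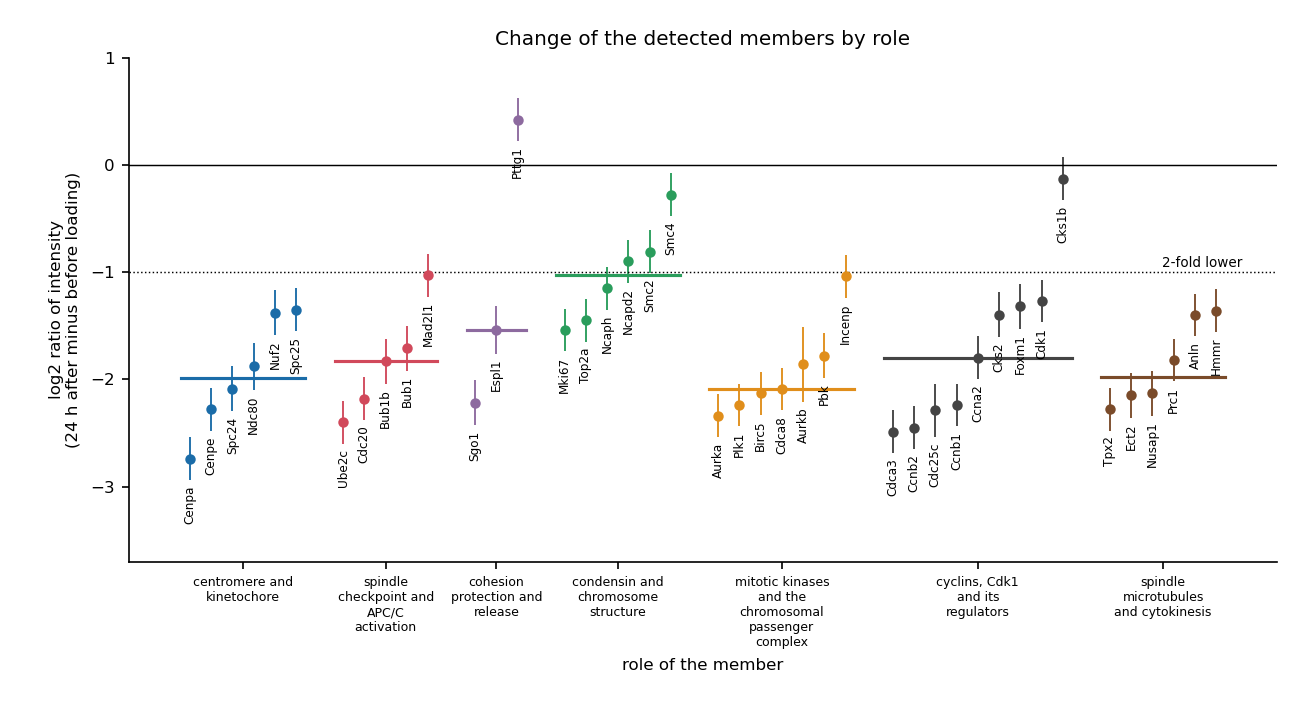
Log2 ratio of 24 h after over before loading (y axis) for each detected member, grouped by role (x axis). Vertical bars are the within-array error, horizontal bars the group median, and the dotted line marks 2-fold lower; the condensin group has its median at -1.02 and the other medians lie between -2.09 and -1.54.

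Different probes of a gene and the position of the spots were looked at for all members. Of 11 members with at least 2 detected probes, 7 had every detected probe lower past 2-fold, namely Ube2c, Mki67, Birc5, Cdca8, Ccnb1, Cdk1 and Tpx2. In Mad2l1, Incenp and Foxm1 the probes lay on both sides of the line, and in Cks1b both were within 2-fold. On these arrays some small areas hold many changed spots. For 21 of the 45 members no spot within 100 µm was lower past 2-fold, and Aurkb and Smc2 alone had 3 such neighbours. Leaving out all probes in such areas removed these genes, and 36 of the 40 detected members that remained were lower past 2-fold, with a median log2 ratio of -1.81. The choice of scaling changed few calls: when the arrays were scaled on their medians or on the spike-in probes, Incenp and Mad2l1 were within 2-fold. With normexp background correction, Aurkb, Espl1 and Ncaph were within 2-fold as well. Under every setting run, each detected member other than Pttg1 had a ratio below 0.

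Genes of the same machinery that are not members varied from list to list. Their lists were written by role, and 1.83% of all detected genes were lower past 2-fold. The closest to the members were the mitotic kinesins, motors that build and move the spindle. All 10 detected ones were lower past 2-fold (median -1.69), namely Kif2c (log2 ratio -2.54), Kif20a (-2.16), Kif4 (-2.04), Kif18b (-2.01), Kif22 and Kif23 (both -1.69), Kif11 (-1.50), Kifc1 (-1.47), Kif20b (-1.20) and Kif18a (-1.14). With normexp background correction the count of kinesins lower past 2-fold was 9. It was 8 when probes in the areas with many changed spots were left out. Kif15 was well above background before loading only, at 46 and 16, at least 2.58-fold lower.

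Further spindle and cytokinesis genes were lower past 2-fold in 16 of 24 detected cases (median -1.43). The lowest were Dlgap5 (248 to 44.6, log2 ratio -2.47), Aspm (794 to 158, -2.33), Ckap2 (848 to 179, -2.25) and Cdkn3 (845 to 189, -2.16). These were followed by Troap (-2.08), Ckap2l (-2.07), Arhgef39 and Fam83d (both -1.82), Gtse1 and Racgap1 (both -1.80), Tacc3 (-1.48), Shcbp1 (-1.47), Psrc1 (-1.38), Depdc1a (-1.26), Depdc1b (-1.08) and Spag5 (-1.02). Cep55 (0.01), Numa1 (-0.02) and Tubg1 (0.05) were at nearly the same level on both arrays. The citron kinase gene Cit was well above background before loading only, at least 2.81-fold lower.

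Further kinetochore genes were lower past 2-fold in 12 of 29 detected cases (median -0.84). They were Ska1 (665 to 143, log2 ratio -2.21), Cenpm (-1.88), Ska3 (-1.66), Cenpp (-1.47), Cenpi (-1.29), Cenpn (-1.24), Spdl1 (-1.18), Cenpu (-1.15), Ska2 (-1.12), Cenph (-1.05), Zwilch (-1.03) and Nsl1 (340 to 170). All 3 genes of the Ska complex, which follows the microtubule end with the Ndc80 complex, were among them, whereas Cenpb (-0.04), Cenpc1 (-0.02) and Mis12 (0.15) were near 0. With normexp background correction the count was 5 in place of 12.

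Most subunits of the APC/C, cohesin and condensin II were within 2-fold. Among those outside the members, the lowest log2 ratios were those of Anapc15 (-0.72), Rad21 (-0.45) and Ncapg2 (-0.56), respectively. Of 21 further checkpoint and APC/C genes, most of them subunits of the ligase, 1 was lower past 2-fold (median -0.15): Trip13, which encodes the ATPase that takes Mad2 apart from its partners, went from 682 to 327 (log2 ratio -1.06). The subunit genes Anapc11 (-0.02), Anapc2 (0.03) and Anapc16 (-0.03) were at nearly the same level, in contrast to the activator Cdc20 and the enzyme Ube2c at -2.18 and -2.40. Of 16 further condensin and cohesin genes, 1 was lower past 2-fold (median -0.08): Cdca5, which encodes the cohesin-stabilising sororin, went from 951 to 404 (-1.24). Pds5a was at an intensity of 394 on both arrays, and Esco1 and Stag2 had log2 ratios of 0.03 and 0.05. Sgo2a, the second shugoshin gene, was at 101 before loading and not well above background at 24 h, at least 5.68-fold lower. Of 16 further kinases and phosphatases, 3 were lower past 2-fold (median -0.44), namely Nek2 (296 to 50, -2.56), Melk (435 to 160, -1.44) and Mastl (126 to 62.2, -1.01). Cdc14b and Wee1 had log2 ratios of 0.04 and 0.07, and Cdc14a was at an intensity of 148 on both arrays. Nek2 and Melk had 6 and 4 lower spots within 100 µm, and without such areas 1 gene of this list remained past 2-fold.

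The list of S phase genes and the list of promoter regulators, which does not hold the member Foxm1, had no gene past 2-fold. The 29 detected S phase genes stayed within it (median -0.25, from -0.82 in Mcm5 to 0.37 in E2f2), with Pcna, the clamp of DNA polymerase, at 8780 and 7364 (-0.25). Of these, E2f1 was at 1149 and 1145, and Mcm3 (0.01) and Rfc3 (0.02) were at nearly the same level. The 19 genes of MuvB, B-Myb and E2F regulators had a median of 0.06. The lowest was Mybl2, which encodes B-Myb, at 951 and 567 (-0.74), and the highest was Rbl2, which encodes p130, at 85.5 and 122 (0.51). Rbl1, which encodes p107, was at 296 and 399 (0.43), E2f4 at 229 and 262 (0.19), and the MuvB genes Lin54, Lin52, Lin37 and Lin9 had log2 ratios of 0.18, 0.06, 0.06 and -0.31. E2f5 (-0.04) and Rb1 (-0.05) were at nearly the same level on both arrays.

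**Figure D5:**
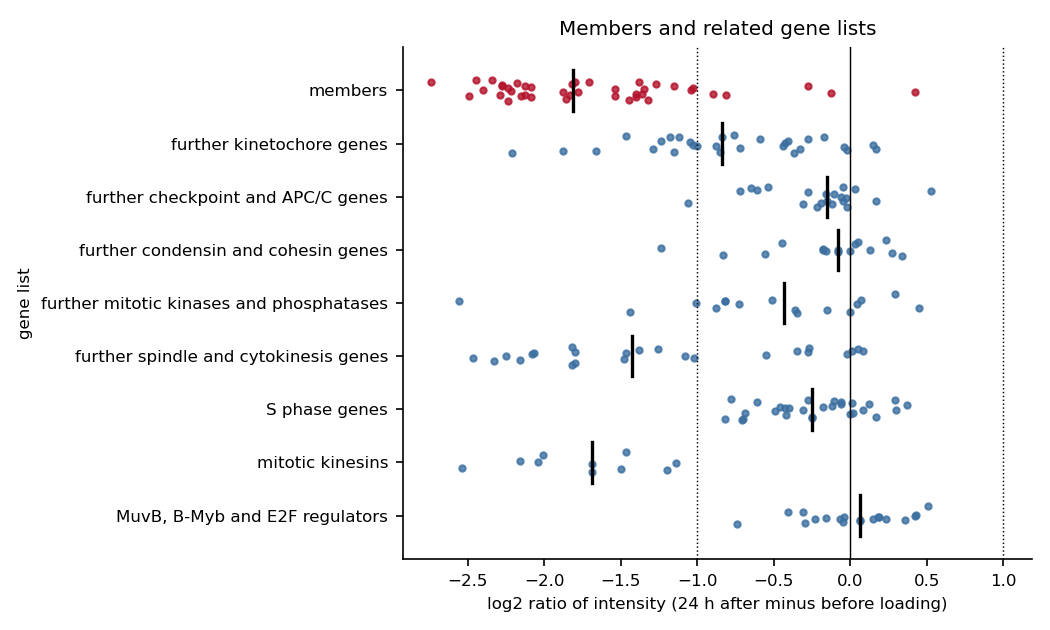
Log2 ratio of 24 h after over before loading (x axis) of each detected gene (points) in the members and 8 related gene lists (y axis), with black bars at the medians and dotted lines at 2-fold. The members (-1.81), mitotic kinesins (-1.69) and further spindle and cytokinesis genes (-1.43) have the lowest medians, and the S phase genes (-0.25) lie within the dotted lines.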

How the data were processed

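RNA of cultures taken before stretching and 24 h later was measured on 2 one-colour Agilent arrays, 1 per time point, on the same slide. The authors deposited each spot's intensity as processed by Feature Extraction 10.10.1.1 after background subtraction, with no normalization between arrays. A deposited table of the authors' intensity values served as an alternative.

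Of 59305 spots, 255 flagged as outliers were left out and spots of a probe were averaged. Log2 intensity minus each array's 75th percentile was used. Probes were named by RefSeq accession (20660 genes, table of GRCm38.p6, names only), with the brightest probe per gene. A gene is detected if both arrays show it well above background (as 59.1% and 57.7% of spots were, with 0 saturated), and the call is a change past 2-fold. The number of arrays limits the precision. Named genes are all members, list genes past 2-fold and up to 3 per list nearest 0. Mybl2, Rbl2, Rbl1, E2f4, the MuvB genes, Pcna, Mcm5, E2f2, genes above background on 1 array and the markers were added after their values were seen. So were Anapc15, Rad21 and Ncapg2. Members and lists were chosen with earlier results of these data known. Calls were tested on simulated data. Python 3.11.15, R 4.3.3 and limma 3.58.1 were used.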

Additional observations from a re-analysis of the deposited data

How the results depend on the processing

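No paired analysis was possible because each time point has a single array, and what depends on differences between cultures cannot be estimated. Of 42 detected members, 37 were lower past 2-fold, and the count was 35 with median or spike-in scaling, 32 with normexp background correction, 36 with the mean over a gene's detected probes and 37 with quantile or loess normalization and with the authors' table. It was 39 of 45 with no filter on dim probes, 38 of 44 with genes above background on at least 1 array, and 27 when the line had to be passed by more than 2 within-array errors. With normexp, the median log2 ratio was -1.37 for the members (-1.81 as reported), -1.44 for kinetochore genes, -1.44 for checkpoint genes, -0.97 for cohesion genes and -1.25 for cyclins and Cdk1 regulators. Normexp adds an offset of 50, which draws dim genes towards 0. It also left 5 further kinetochore genes and 0 further checkpoint and APC/C genes (12 and 1 as reported). The latter count was 0 with median and with spike-in scaling. Further condensin and cohesin genes lower past 2-fold numbered 2 with no filter and 2 with genes above background on at least 1 array (1 as reported). Without spots in disturbed areas, meaning at least 3 neighbours within 100 µm changed past 2-fold in the same direction, which was chosen after seeing the data, 1 further kinase or phosphatase gene passed (3 as reported). Spike-in scaling moved the median of all genes from -0.01 to 0.10 and that of the members to -1.69. Dim members, among them Aurkb, Cdc25c, Ttk, Ncapg and Cenpf, are limited by their signal.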

Other observations

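The promoter motif of the members was also counted in the other genes lower past 2-fold, a comparison chosen after the members' values were seen. Of the 176 such genes with a promoter entry, 59 (33.5%) held TTTGAA on either strand, 40 (22.7%) held both TTTGAA and a CCAAT box, and 12 (6.82%) held an E2F octamer. Over the 11320 genes with an entry that were detected on both arrays, these shares were 14.6%, 7.14% and 7.49%. The 176 genes include lowered genes of the mitotic lists above, such as the kinesins, and these were not counted apart. Of the 11 mitotic kinesin genes with an entry, 10 held TTTGAA, and of the 21 further checkpoint and APC/C genes 4 did.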
